A study of Mus musculus with 12 samples.

Results

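The genes described are Trp53, which encodes the tumour suppressor p53, and 9 genes that p53 is known to switch on: Cdkn1a, Mdm2, Ccng1, Bax, Bbc3, Phlda3, Sesn2, Zmat3 and Gadd45a. They were taken as a list of gene names, with no measured value in the rule, though with earlier results of these data known, and all 10 were found among the 32285 genes counted. Mif, macrophage migration inhibitory factor, is a secreted cytokine reported to restrain p53, and the question was how these genes stood in cell lines labelled as knockouts (KO) of Mif. The tumours were mouse tumours, dissociated, hashed with barcoded antibodies, sorted for live cells and profiled with the 10x 5′ single-cell kit, in a series on melanoma rejection. The control group was made of the lines SCC35 Mif KO control 15 and SCC35 Mif KO control 18, and the KO group of SCC35 Mif KO 19 and SCC35 Mif KO 24, sampled at days 0, 6, 10 and 16. Tumours named WT in the sheet of hashtags were in no labelled group and are given by their values only. The labels give no further treatment, host strain, animal age or allele, and do not say what day 0 is or whether a line is a single clone. Each hashtag is called a tumour here, those of day 0 included, although the labels do not say that these were tumours. Nothing in the labels says that tumours came from separate animals, so p-values over tumours measure the spread between these hashtags.

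p53 is a transcription factor that is held at a low level by Mdm2, a ubiquitin ligase whose own gene it activates. When DNA is damaged or cells are stressed, p53 is stabilised and raises genes that stop the cell cycle, repair DNA or kill the cell. Cdkn1a encodes p21, an inhibitor of cyclin-dependent kinases, through which many cell cycle genes are repressed. Bax and Bbc3 (PUMA) belong to the Bcl2 family and promote apoptosis. Most of these genes also respond to other signals, and Gadd45a, Sesn2 and Cdkn1a in particular are raised by stresses that do not need p53.

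The promoter windows of the members were compared with the p53 response element consensus, in RefSeq sequence of the build GRCm38.p6 from 250 bases before to 50 bases after each start. Windows were on hand for 9 of the 10 members (all but Zmat3), 12 windows in all. The element was taken as 20 bases, 2 decamers in a row with no gap, and with the C and G of the CNNG core kept in each decamer 4 of these genes had a window with at most 3 mismatches. The consensus reads the same on both strands. The 4 stretches are shown because they are the closest letters to a p53 site beside these starts, with the core of each decamer in capitals, 5′ to 3′ on the strand of the gene:
Cdkn1a: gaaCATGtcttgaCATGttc
Ccng1: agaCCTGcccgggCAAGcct
Bbc3: ctgCAAGccccgaCTTGtcc
Trp53: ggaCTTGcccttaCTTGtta
The stretch of Cdkn1a, at chr17:29090928-29090947 on the plus strand, begins 51 bases before the start of its window and has 1 mismatch. Another start of Cdkn1a has a window with 7 mismatches at best. That of Ccng1, at chr11:40755462-40755481 on the minus strand, begins 195 bases before the start and also has 1 mismatch. Bbc3, at chr7:16309486-16309505 on the plus strand, and Trp53, at chr11:69580284-69580303 on the plus strand, have 3 mismatches each. The windows at other starts of Bbc3 have 7 and 8 at best. In all, 4 of the 12 windows hold a stretch with at most 3 mismatches. Of 32851 windows of the same length in the table, 0.0670% hold a stretch with at most 1 mismatch and both cores kept, and 1.38% one with at most 3. A match is letters in a window and not a measured site.

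The cells of the lines were taken as the clusters without the name of a host cell type and with little Ptprc, the pan-leukocyte gene. These 64465 cells are called line cells, out of 100557 assigned to a single tumour. They came from 21 control tumours (28390 cells), 21 KO tumours (29666 cells) and 3 WT tumours (6409 cells), with 1837409 to 26175094 UMIs per tumour. Melanocytic markers were nearly absent from them: Tyr and Tyrp1 had a level of 0 (CPM, the share of a gene in all UMIs, scaled to 1e6), Mlana 0.0545 and Sox10 0.340 CPM, beside 13.3 CPM of Mitf and 234 CPM of the collagen gene Col1a1. No marker identified these cells as tumour cells. Mif checked the labels of the lines: it was 2321 ± 363 CPM in control tumours and 277 ± 234 CPM in KO tumours (SD, n = 21 each), and all 21 KO tumours were below every control tumour. The KO lines differed: line 24 had 468 ± 186 CPM (n = 10) and line 19 had 104 ± 94.0 CPM (n = 11), the KO mean without line 24. Line 19 had 42.5 to 54.4 CPM in its own library and 231 to 266 CPM in mixed library 1, and line 24 had 233 to 462 CPM in its own and 702 to 720 CPM in mixed library 2. Of 163866 passing barcodes, 13716 sequences (9.18% of the distinct ones) were shared by more than 1 library. Depth differed between lines, from a median of 17351.5 UMIs per cell in a day 0 tumour of line 15 to 3933 in a day 16 tumour of line 18. Summed macrophage markers in line cells ran from 11.6 to 64.5 CPM in control tumours and from 12.3 to 92.4 CPM in KO tumours, highest in line 24. Of those markers, C1qa in line cells stood at 0.188% of its macrophage level.

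Across all days, 5 of the 10 members rose in line cells of the KO lines and none fell. Gadd45a rose most, by 1.11 ± 0.21 on the log2 scale (± SE throughout for log2 fold changes), followed by Sesn2 (0.43 ± 0.10), Bbc3 (0.35 ± 0.07), Ccng1 (0.24 ± 0.07) and Phlda3 (0.20 ± 0.07). The others did not pass the adjusted threshold of 0.05: Mdm2 at 0.15 ± 0.08, Cdkn1a at 0.12 ± 0.09, Bax at 0.06 ± 0.06, Zmat3 at 0.00 ± 0.05 and Trp53 at -0.05 ± 0.06. In this comparison 49.8% of 11746 genes passed, 25.1% higher and 24.6% lower in the KO lines. The median fold change of the members was 0.17, against 0.00 over all genes tested. A term for the library left 2 of the 5 (Sesn2 and Phlda3), and 1 sum per line left 0 of 10, and 0 of 15151 genes, although 1191 genes had an unadjusted p under 0.05. Without line 18 the count was 2 (Bbc3 and Gadd45a), without line 24 it was 3 (Sesn2, Bbc3 and Ccng1), and without line 15 it was 7, with Cdkn1a and Bax added.

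**Figure D1:**
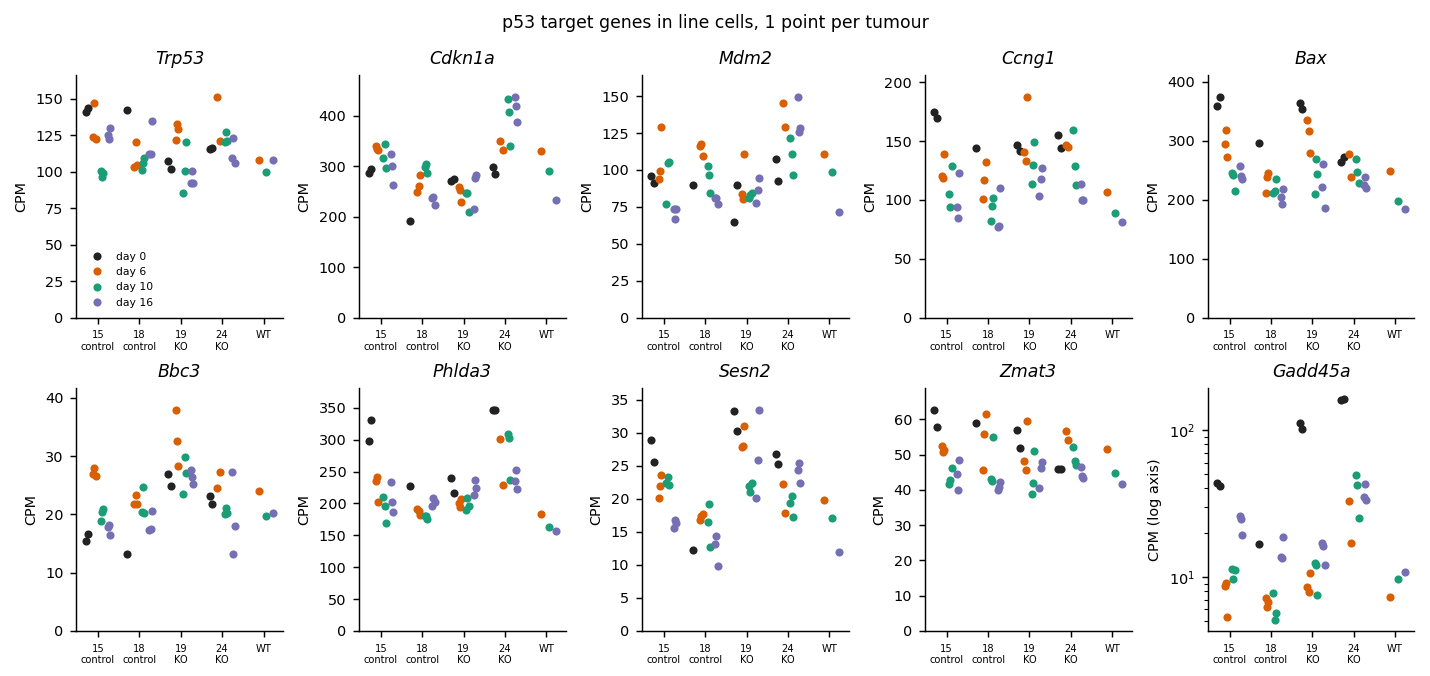
Level of each gene in line cells (y axis, CPM; log axis for Gadd45a only), with 1 point per tumour, by line (x axis) and day (colour). The day 0 points of Gadd45a stand above the later days in lines 15, 19 and 24, and all points of Cdkn1a in line 24 stand above those of line 19, while those of Mdm2 overlap (92.3 to 150 CPM in line 24, 65.0 to 111 CPM in line 19).

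Gadd45a encodes a small protein that binds PCNA and p21 and takes part in DNA repair and growth arrest. In control tumours it ran from 5.10 to 43.9 CPM with a median of 11.1, and in KO tumours from 7.53 to 163 CPM with a median of 25.2. The groups overlapped, and 5 KO tumours were above all control tumours. The high values sat at day 0 and in line 24. At day 0 the tumours of line 15 had 43.9 and 41.8 CPM of Gadd45a and that of line 18 had 16.7 CPM, while line 19 had 112 and 101 CPM and line 24 had 160 and 163 CPM. At days 6 to 16 line 19 held 7.53 to 16.9 CPM, within the 5.10 to 25.9 CPM of the control lines, while line 24 held 17.1 to 49.5 CPM. Without line 24, the KO against control difference of Gadd45a was 0.41 (adjusted p = 0.052), and without line 19 it was 1.72 (adjusted p = 6.8e-10).

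Most line cells of line 24 at day 0 lay in a cluster led by Npr3 and Ogn. That cluster held 2235 of the 2716 line cells of line 24 at day 0 (82.3%), with Gadd45a at 158 CPM, and at most 1.06% of the line cells of any other line at that day. The remaining day 0 cells of line 24 had 171 CPM. Over all days it held 23.0% of the line cells of line 24, and Gadd45a in that line was 74.0 CPM with these cells and 46.7 CPM without them.

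Sesn2 encodes sestrin 2, which restrains mTORC1 signalling and responds to amino acid shortage as well as to p53. Control tumours had 9.88 to 28.9 CPM with a median of 17.4 CPM, and KO tumours had 17.3 to 33.5 CPM with a median of 24.4. The lowest KO tumour was near the control median, and 4 KO tumours were above every control tumour. Line 18 was the low one, at 15.0 ± 2.99 CPM (SD, n = 10), beside 21.5 ± 4.07 CPM (n = 11) in line 15, 22.2 ± 3.32 CPM (n = 10) in line 24 and 26.8 ± 4.91 CPM (n = 11) in line 19. Lines 15 and 24 differed by less than their spread. Without line 18, the difference was 0.20 (adjusted p = 0.089), and without line 19 it was 0.24 (adjusted p = 0.11).

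Bbc3, the PUMA gene, was high in line 19. Control tumours ran from 13.2 to 27.9 CPM with a median of 20.4, and KO tumours from 13.2 to 37.9 CPM with a median of 25.3. Line 19 had 28.2 ± 4.06 CPM (SD, n = 11), while line 24 at 21.7 ± 4.24 CPM (n = 10) was within 1 SD of lines 15 (20.5 ± 4.56, n = 11) and 18 (20.1 ± 3.31, n = 10). Without line 19 its difference was 0.12 (adjusted p = 0.21).

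Ccng1 encodes cyclin G1, which recruits a phosphatase to Mdm2 and is among the most regular p53 targets. Control tumours had 77.1 to 175 CPM with a median of 110 CPM, and KO tumours had 99.9 to 188 CPM with a median of 133 CPM. Line 19 had 136 ± 22.4 CPM and line 24 had 131 ± 22.5 CPM, above line 15 with 123 ± 29.4 CPM and line 18 with 104 ± 22.6 CPM (SD; n = 11 for lines 15 and 19, n = 10 for the others). The gaps to line 15 are smaller than 1 SD, and those to line 18 are larger. Without line 18 the difference was 0.13 (adjusted p = 0.14).

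Phlda3 encodes a pleckstrin homology protein that competes with Akt for membrane lipids. It ran from 170 to 331 CPM in control tumours (median 202) and from 189 to 347 CPM in KO tumours (median 228). Here the lines did not sort by group: line 24 had 278 ± 48.6 CPM, line 15 had 228 ± 48.5 CPM, line 19 had 212 ± 16.8 CPM and line 18 had 193 ± 16.1 CPM. Its difference was 0.04 (adjusted p = 0.65) without line 24 and 0.09 (adjusted p = 0.40) without line 18.

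The p53 gene itself and its inhibitor showed no KO difference over all days. Trp53 ran from 96.0 to 147 CPM in control tumours (median 120) and from 85.3 to 151 CPM in KO tumours (median 116). Mdm2 ran from 67.0 to 129 CPM in control tumours (median 93.9) and from 65.0 to 150 CPM in KO tumours (median 94.2). The groups overlapped over nearly their whole range for both genes. A line cell cluster led by Gm26917 and Neat1, with a median of 2173 UMIs, had Mdm2 at 202 CPM, beside 78.6 to 115 CPM in the others. Zmat3 (99.9 CPM) and Sesn2 (37.9 CPM) were also highest there, and Bax, Phlda3 and Ccng1 lowest. It held 5.80% of the line cells of line 24 and 8.27% to 11.5% of those of lines 15, 18 and 19. The part of this cluster in the level of Mdm2 was not tested. Mdm2 differed between the KO lines, at 121 ± 19.1 CPM in line 24 (SD, n = 10) and 85.0 ± 11.3 CPM in line 19 (n = 11), with the control lines between them. Without line 19 its KO difference was 0.40 (adjusted p = 0.00016), and without line 24 it was -0.08 (adjusted p = 0.38).

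Cdkn1a, the p21 gene, had the same split between the KO lines. Control tumours had 192 to 344 CPM with a median of 295 CPM, and KO tumours had 210 to 438 CPM with a median of 282 CPM. Line 24 stood at 369 ± 56.1 CPM (SD, n = 10) and line 19 at 252 ± 24.8 CPM (n = 11), above and below line 15 at 312 ± 25.8 CPM (n = 11). Line 18 at 257 ± 36.2 CPM (n = 10) did not differ from line 19 beyond their spread. The lines also lay in different clusters of line cells. A cluster led by Aqp4 and Ccl2, with Cdkn1a at 383 CPM, held 48.4% of the line cells of line 24 and 0.577% to 2.88% of those of lines 15, 18 and 19. It also held 32.4% of the line cells of the WT tumours, whose Cdkn1a was 232 to 330 CPM. A cluster led by Wfdc2 and Fgfbp1, with Cdkn1a at 230 CPM, held 28.0% of those of line 19 and 0.251% to 4.93% of those of the other three. The part of the clusters in the difference between lines was not tested.

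Bax, the pore-forming effector of mitochondrial apoptosis, ran from 193 to 374 CPM in control tumours (median 240) and from 186 to 364 CPM in KO tumours (median 260). Zmat3, which encodes a zinc finger RNA-binding protein that regulates splicing, ran from 39.95 to 62.7 CPM in control tumours (median 46.2) and from 38.9 to 59.7 CPM in KO tumours (median 47.0). Zmat3 was the member that varied least between lines, with means between 48.1 and 49.0 CPM in all 4.

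An exact permutation test over the 4 line means, whose smallest two-sided p is 0.33, gave that value for Gadd45a, Sesn2, Bbc3 and Ccng1, which had both KO lines above both control lines, and 0.67 or 1 for the other 6 members. With 2 lines in a group the design cannot reach 0.05 by this test. When each KO line was set against each control line in a single fit, no member was called the same way in all 4 pairs. Sesn2 was higher in 19 against 15 (0.34 ± 0.10), 19 against 18 (0.84 ± 0.10) and 24 against 18 (0.53 ± 0.11), and 0.02 ± 0.11 in 24 against 15. Gadd45a was higher in both pairs of line 24 (1.43 ± 0.19 and 1.99 ± 0.20) and in 19 against 18 (0.72 ± 0.19), and 0.16 ± 0.18 in 19 against 15. Bbc3 was higher in both pairs of line 19 (0.49 ± 0.08 and 0.55 ± 0.08) and passed in neither pair of line 24.

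Mdm2 and Phlda3 were higher in both pairs of line 24 and passed in neither pair of line 19. Cdkn1a was higher in line 24 than in 15 (0.21 ± 0.08) and 18 (0.55 ± 0.08), and lower in 19 than in 15 (-0.29 ± 0.08). The members called were 2 higher and 2 lower in 19 against 15 (46.3% of all genes called, 22.6% higher and 23.7% lower) and 5 higher in 19 against 18 (41.2%; 19.6% higher and 21.5% lower). They were 4 higher and 1 lower in 24 against 15 (62.4%; 30.8% higher and 31.6% lower) and 6 higher in 24 against 18 (54.3%; 25.8% higher and 28.5% lower). Lines of a single group differed as well: 6 members were higher in line 15 than in line 18 (25.7% of all genes called, 12.8% higher and 12.9% lower), and between lines 19 and 24 the count was 3 higher and 4 lower in line 19 (57.2%; 27.9% higher and 29.3% lower). The 6 that differed between the control lines were Cdkn1a, Ccng1, Bax, Phlda3, Sesn2 and Gadd45a, with log2 fold changes of 0.24 to 0.56. The tests of the pairs share tumours and are not independent.

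**Figure D2:**
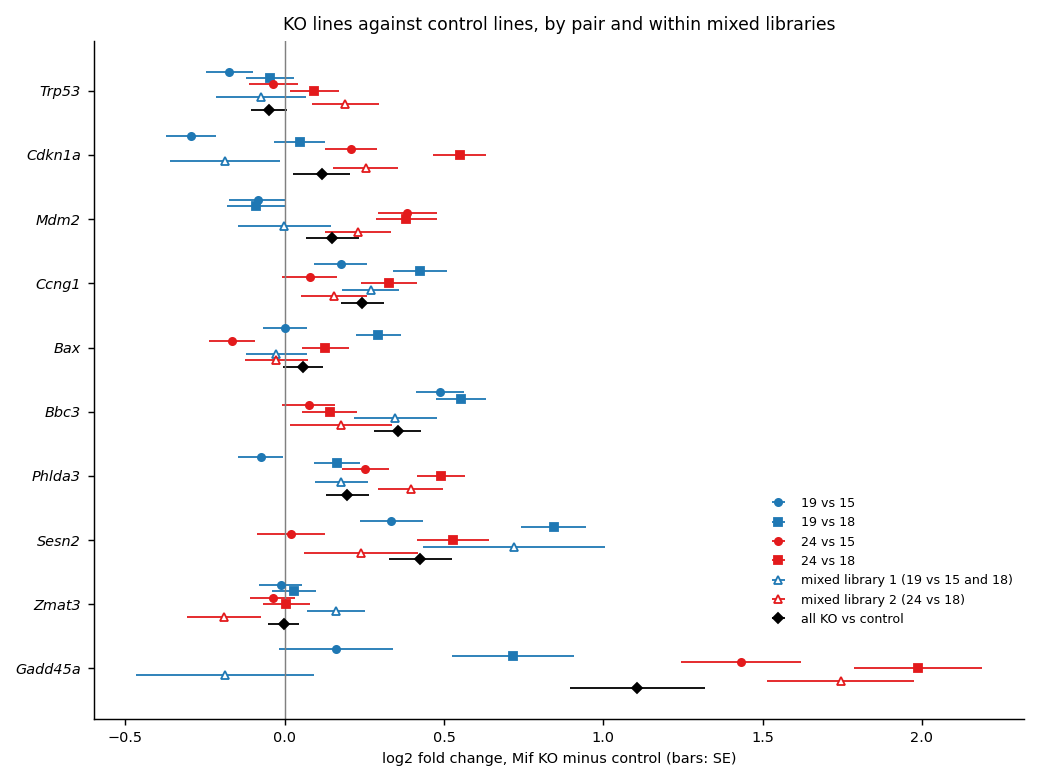
Log2 fold change of each gene in line cells, Mif KO minus control (x axis; bars are SE), for the 4 pairs of lines, for the 2 mixed libraries and for all tumours. Gadd45a, at the bottom, lies between 0.16 and 1.99 over the pairs, and Cdkn1a lies on both sides of 0, from -0.29 to 0.55.

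Both groups were captured together in 2 mixed libraries, where the library is the same for both. Line cells of the KO lines had more Mif there than in their own libraries. Line 19 had 231 to 266 CPM beside 42.5 to 54.4 CPM, and line 24 had 702 to 720 CPM beside 233 to 462 CPM. What this does to the differences within the mixed libraries was not tested. Mixed library 1 held lines 19 and 15 at days 6, 10 and 16 and line 18 at day 16. None of the 10 members passed there (0 by edgeR), beside 7.17% of 11997 genes (4.58% higher and 2.59% lower), with 3 members at an unadjusted p under 0.05 (Ccng1, Bbc3 and Sesn2). Mixed library 2 held line 24 at days 6, 10 and 16 and line 18 at days 6 and 10. There 1 member passed, Gadd45a at 1.75 ± 0.23 (adjusted p = 0.0082), beside 10.0% of 11678 genes (7.04% higher and 3.01% lower). The day 16 tumour of line 24 had no control tumour of its day. With day as a term, this comparison therefore rests on the tumours of days 6 and 10. With another scaling, the RLE size factors, the count over both libraries was 2 in place of 1. In mixed library 1 Gadd45a was -0.19 ± 0.28. Sesn2 was 0.72 ± 0.29 in the first and 0.24 ± 0.18 in the second library, and Phlda3 was 0.18 ± 0.08 and 0.40 ± 0.10. Each mixed library has 1 tumour per line and day, and 7 and 5 tumours entered these tests. The 3 WT tumours of mixed library 2 did not.

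All 10 members passed an F test that the 4 days are equal, with line as a term. Trp53 passed it (adjusted p = 0.010) but did not pass against day 0 at day 6 (0.14 ± 0.08), day 10 (-0.12 ± 0.08) or day 16 (-0.05 ± 0.08). Of all genes, 70.0% passed this test, and 51.4%, 50.8% and 51.8% passed against day 0 at days 6, 10 and 16. Gadd45a moved most, with log2 fold changes of -2.69 ± 0.20 at day 6, -2.36 ± 0.19 at day 10 and -1.67 ± 0.19 at day 16. Of the other members, Ccng1 (-0.50 ± 0.09), Bax (-0.44 ± 0.08), Sesn2 (-0.30 ± 0.12), Phlda3 (-0.27 ± 0.08) and Zmat3 (-0.24 ± 0.08) were lower at day 16, where 6 members had fallen, beside 26.3% of all genes. Cdkn1a was the only member higher at day 16 by this test (0.22 ± 0.09, adjusted p = 0.034), beside 25.5% of all genes, and was also higher at day 6 (0.28 ± 0.09) and day 10 (0.29 ± 0.09), where 2 members were higher (24.7% of all genes) and 4 lower (26.1%). Bbc3 and Mdm2 peaked at day 6, at 0.57 ± 0.09 and 0.43 ± 0.11, where 3 members were higher (24.2% of all genes) and Phlda3 and Gadd45a lower (27.2%).

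Day 0 was sampled in single-line libraries only, with 3 control and 4 KO tumours. Those of line 24 held 1 and 2 macrophages and the others none, against 101 to 817 in each later tumour. Day 0 values therefore come from line cells with almost no macrophages beside them, and none were summed at that day. Without the mixed libraries all 10 members again passed the F test. Without line 15, Sesn2 and Phlda3 did not pass, without line 18 Cdkn1a and Sesn2 did not, without line 19 Trp53 did not, and without line 24 Cdkn1a did not.

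**Figure D3:**
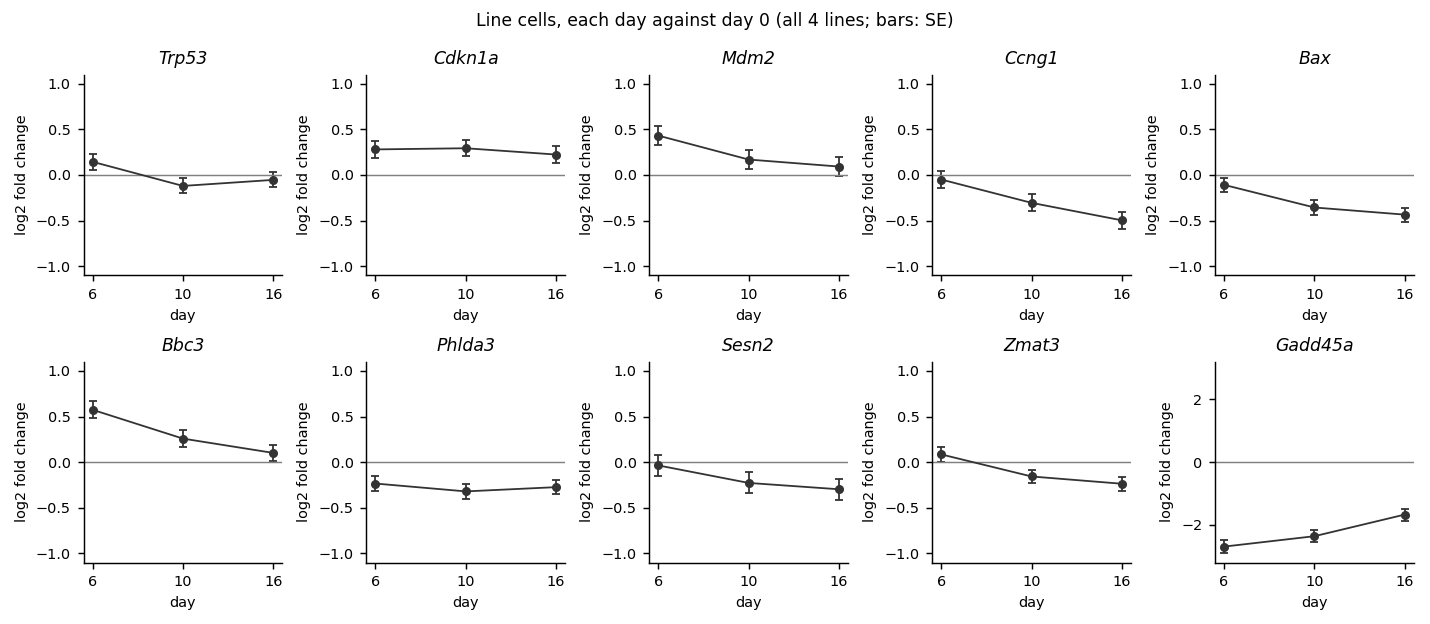
Log2 fold change of each gene in line cells at days 6, 10 and 16 against day 0 (y axis; bars are SE), over the 4 lines with line as a term. The scale is wider for Gadd45a, which lies between -2.69 and -1.67, while the other genes stay within -0.50 and 0.57.

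The KO against control difference depended on the day for 5 of the 10 members, by an F test of the group by day term that 29.5% of genes passed. These were Trp53 (adjusted p = 0.00048), Zmat3 (0.0057), Mdm2 (0.0084), Ccng1 (0.010) and Sesn2 (0.032). Ccng1 was -0.29 ± 0.14 at day 0 (adjusted p = 0.092), with 163 ± 16.5 CPM in the 3 control tumours and 147 ± 5.92 CPM in the 4 KO tumours, opposite in sign to its difference over all days. Phlda3 was -0.14 ± 0.16 at day 0 (adjusted p = 0.51). Its CPM means, which lack the scaling of the fit, were not lower in KO tumours, at 286 ± 52.9 in control and 287 ± 69.5 in KO tumours. At that day, Trp53 was lower in the KO lines (-0.51 ± 0.11, adjusted p = 0.00023), and so was Zmat3 (-0.40 ± 0.10), while Gadd45a (1.78 ± 0.48) and Bbc3 (0.52 ± 0.19) were higher, beside 44.6% of genes called, 22.2% lower and 22.4% higher. The day 0 values of Trp53 did not overlap, with 141, 144 and 142 CPM in the control tumours and 102 to 116 CPM in the 4 KO tumours. At days 6, 10 and 16 its difference was 0.13 ± 0.09, 0.17 ± 0.08 and -0.16 ± 0.08, none past the threshold.

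Mdm2, Sesn2, Ccng1 and Bbc3 were higher in the KO lines at day 16. That is 4 of 10, as many as were called at day 0, beside 19.0% of genes called, 10.1% higher and 8.91% lower. Mdm2 was 0.62 ± 0.13 (adjusted p = 0.0012) and Sesn2 0.90 ± 0.16 (adjusted p = 0.00020) at that day. For Mdm2, the control tumours had 67.0 to 81.2 CPM at day 16, line 19 had 77.7, 86.5 and 94.2 CPM and line 24 had 126, 129 and 150 CPM, so that only 1 KO tumour lay within the control range. For Sesn2, the control tumours had 9.88 to 16.8 CPM and the KO tumours 20.1 to 33.5 CPM, with no overlap. Cdkn1a at day 16 was 0.43 ± 0.16 (adjusted p = 0.055), with line 24 at 388 to 438 CPM and line 19 at 215 to 282 CPM. At day 10 Gadd45a, Ccng1 and Phlda3 were higher (21.2% of all genes called, 10.6% higher and 10.6% lower), and at day 6 Ccng1 alone was (21.7% called, 10.3% higher and 11.5% lower). Without line 15, which supplied 2 of the 3 control tumours of day 0, 1 member (Trp53) kept a group by day term past the threshold.

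**Figure D4:**
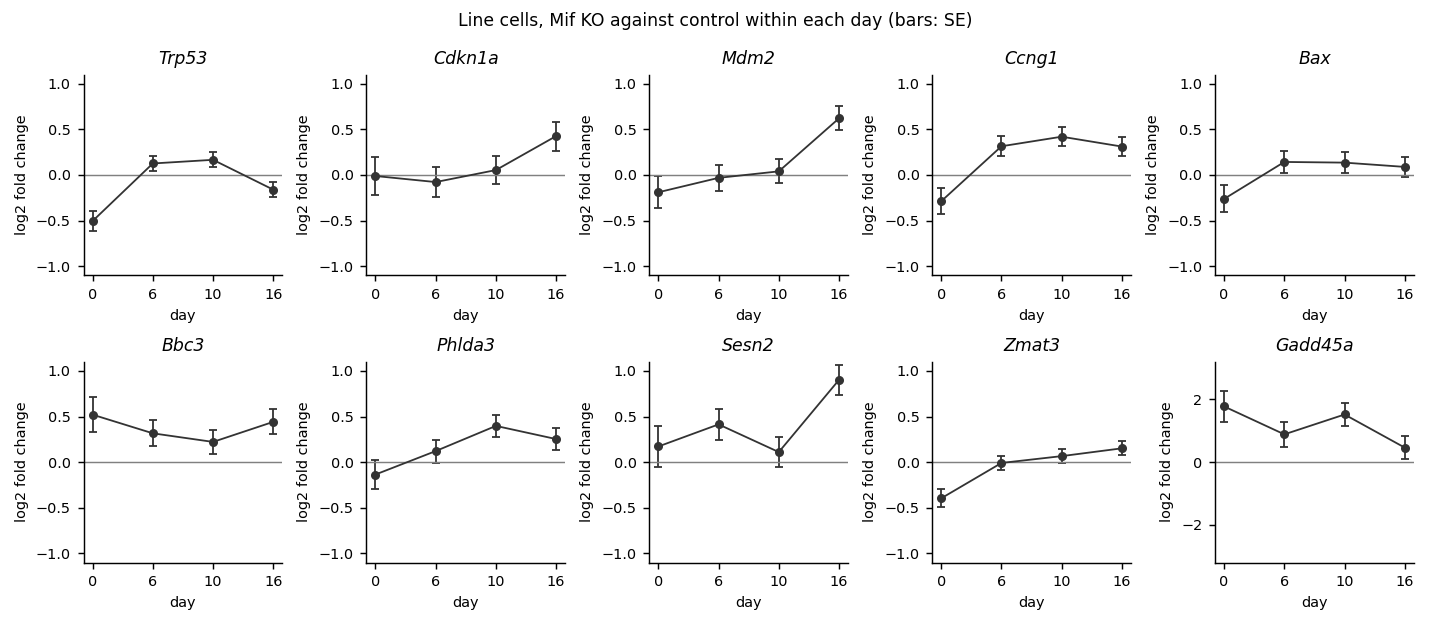
Log2 fold change of each gene in line cells, Mif KO minus control, within days 0, 6, 10 and 16 (x axis; y axis log2; bars are SE). Trp53 and Zmat3 are at -0.51 and -0.40 at day 0, and Mdm2 and Sesn2 are highest at day 16, at 0.62 and 0.90.

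Cell cycle genes that are repressed through p21 were compared in the same way. Of 18 such genes, 15 were lower and none higher in the KO lines, with a median log2 fold change of -0.49 beside 0.00 over all genes, of which 24.6% were lower. In line 19 against 15, where Cdkn1a was itself lower, 8 were lower and none higher, beside 23.7% of all genes lower. Against line 18, 11 were lower in line 19 (21.5% of all genes) and 15 in line 24 (28.5%), with none higher. In line 24 against 15, 11 were lower and 1 higher (31.6% and 30.8%). The part of p21 in these differences was not tested. In mixed library 1, where both groups were captured together at days 6 to 16, none of the 18 was lower and 1 was higher. The median there was -0.11, beside 2.59% of genes lower and 4.58% higher. In mixed library 2, 3 were lower and none higher, with a median of -0.41, beside 3.01% lower. Neither mixed library held day 0, so their counts cover fewer days and tumours than the 15 of 18 over all libraries. Over all libraries Plk1 (-0.87 ± 0.12), Ccna2 (-0.75 ± 0.15) and Ccnb1 (-0.64 ± 0.10), which drive entry into and passage through mitosis, changed most. The difference was largest at day 0, where all 18 were lower with a median of -1.90, beside 22.2% of all genes. Cdkn1a itself was not called between the groups at that day. At day 6, 10 were lower with a median of -0.45, beside 11.5% of all genes. At days 10 and 16, 2 each were lower with a median of -0.11 at both, a share near the 10.6% and 8.91% of all genes. At day 0, 79.5% to 85.3% of line cells of control tumours had a UMI of Mki67, Top2a, Ccnb1, Cdk1 or Cenpf, and 35.4% to 51.4% of those of KO tumours. Median depth at that day was 8274 to 17351.5 UMIs in control tumours and 5785 to 11329.5 in KO tumours, and its part in this share was not tested.

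Within tumours, the members differed between cells with and without such a UMI. Cells with one had less Gadd45a in 41 of 42 tumours (median log2 ratio -0.62), less Phlda3 in 39 (-0.20), less Cdkn1a in 37 (-0.32) and less Mdm2 in 37 (-0.10). They had more Trp53 in all 42 tumours, with a median ratio of 0.50 on the log2 scale. Bax was higher in 34 of 42 tumours (0.10), while Bbc3 was lower in 34 (-0.18) and Sesn2 in 31 (-0.16). Ccng1 and Zmat3 were each higher in 25 of 42. Deeper cells are more likely to hold such a UMI, and these ratios are descriptions without a test. In cells without one, Gadd45a, Sesn2, Bbc3 and Ccng1 still passed between groups, and Phlda3 at 0.17 did not (adjusted p = 0.084).

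Of the p53 regulators, Cdkn2a, whose p19Arf product binds Mdm2, was all but absent: 5 UMIs in 531684712 of line cells (0.0094 CPM, exact Poisson interval 0.0031 to 0.022), against 39 UMIs in 36884779 of macrophages (1.06 CPM, 0.75 to 1.45). Its neighbour Cdkn2b, the p15 gene, had 6 UMIs in line cells. Trp63 and Trp73, which encode the relatives of p53, had 47 and 3 UMIs. Intervals cover counting error only. Apart from Mif, Usp7 (0.55 ± 0.07), a deubiquitinase of Mdm2 and p53, and Sirt1 (0.41 ± 0.07), a p53 deacetylase, rose in the KO lines, and Chek2 (-0.52 ± 0.09) and Rchy1 (-0.37 ± 0.05), a p53 ubiquitin ligase, fell. In all, 4 of 17 regulators tested rose and 4 fell, Mif among them, which is near the 25.1% and 24.6% of all genes.

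Among 31 other p53 target genes tested, 12 rose and 5 fell in the KO lines, beside the 25.1% and 24.6% of all genes, with a median log2 fold change of 0.07. The counts varied with the samples compared. At day 0, 5 were higher and 8 lower (22.4% and 22.2% of all genes). The counts were 3 and 0 at day 6 (10.3% and 11.5%), 4 and 3 at day 10 (10.6% and 10.6%) and 5 and 1 at day 16 (10.1% and 8.91%). Line 19 had 4 higher and 9 lower against 15 (22.6% and 23.7%), and 8 and 4 against 18 (19.6% and 21.5%). Line 24 had 12 higher and 7 lower against 15 (30.8% and 31.6%), and 16 and 7 against 18 (25.8% and 28.5%). Neither mixed library held day 0. In mixed library 1 none of the 31 passed, and in mixed library 2, 7 were higher and none lower, beside the 7.04% and 3.01% of all genes. Over all libraries the highest were the death receptor gene Fas (1.43 ± 0.33), the antiproliferative gene Btg2 (1.28 ± 0.20) and Gdf15 (0.93 ± 0.25), a secreted stress cytokine. Fdxr and Ei24 fell (-0.33 ± 0.06 each), as did Zfp365 (-0.30 ± 0.11). In the Bcl2 family 3 of 10 rose and 3 fell: Bcl2, which blocks apoptosis, was 0.70 ± 0.11 and Bad 0.22 ± 0.07, against Bok at -0.77 ± 0.17, Bak1 at -0.35 ± 0.06 and Mcl1 at -0.15 ± 0.05. Of 3 other Cdk inhibitors tested, Cdkn2d fell (-0.62 ± 0.07) and none rose. In the integrated stress response, which raises Sesn2 and Ppp1r15a through Atf4, 5 of 14 genes rose, with Ppp1r15a at 0.90 ± 0.10, Nupr1 at 0.63 ± 0.16 and Atf4 at 0.48 ± 0.08. Phgdh (-0.58 ± 0.16) and Psat1 (-0.46 ± 0.14), serine synthesis genes of the same list, fell.

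Macrophage-like cells of the same tumours, host cells that are not of the lines, gave a reference. They came from 18 control and 17 KO tumours with 101 to 817 cells each, and none at day 0. Their Mif was 1122 ± 198 CPM in control tumours and 1000 ± 171 CPM in KO tumours. In these cells 4 of 10 members rose with tumours of the KO lines and none fell, beside 37.9% of 6952 genes called, 19.3% higher and 18.6% lower: Gadd45a (1.24 ± 0.24), Mdm2 (0.75 ± 0.13), Ccng1 (0.47 ± 0.11) and Cdkn1a (0.41 ± 0.15). Mdm2 ran from 49.0 to 264 CPM in control tumours (median 103) and from 79.9 to 381 CPM in KO tumours (median 139), with overlap. Gadd45a had 1.74 to 20.98 CPM in control tumours (median 7.17) and 5.76 to 30.3 CPM in KO tumours (median 18.1), from 1 to 45 UMIs a tumour.

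Mdm2 passed among macrophages in mixed libraries alone (0.94, adjusted p = 0.0078) and with a library term (0.85, adjusted p = 0.017). Each single-line library holds 1 group, so the fit with a library term compares the groups within the mixed libraries only. As 1 sum per line Mdm2 was 1.01 (adjusted p = 0.016), in a fit without a term for day. In control tumours it fell from 197 ± 41.6 CPM at day 6 to 59.1 ± 7.97 CPM at day 16 (SD). The exact permutation test over the 4 line means gave 0.33 for Mdm2 in macrophages. Gadd45a did not pass with the library term (1.06, adjusted p = 0.13) and was too low to be tested in the mixed libraries alone. Ccng1 passed neither with the library term (0.39, adjusted p = 0.14) nor in the mixed libraries alone (0.33, adjusted p = 0.30). Cdkn1a also passed in neither (0.39, adjusted p = 0.29, and 0.49, adjusted p = 0.11), nor without line 18 (0.18, adjusted p = 0.39) or without line 24 (0.18, adjusted p = 0.49). Phlda3, which is high in line cells, was 19.2 ± 7.92 CPM in macrophages of control tumours and 19.98 ± 6.37 CPM in those of KO tumours. Phlda3 had 214 CPM in line cells and 19.0 CPM in macrophages, when all cells of a class were summed, while Cdkn1a had 283 CPM in the first and 844 CPM in the second. Trp53 (113 and 64.2 CPM) and Zmat3 (47.8 and 12.7 CPM) were also higher in line cells. These levels compare 1 gene between cell types and no test was made of them. The fibroblast genes Col1a1 and Col3a1 had 234 and 156 CPM in line cells and 40.4 and 30.7 CPM in macrophages. Pdgfra and Dpt of the same marker list were also higher in line cells. Dcn (3.76 and 14.2 CPM), Lum (1.11 and 3.14 CPM) and Pi16 (0.177 and 2.68 CPM) were lower in line cells than in macrophages. The part of free RNA from line cells in the macrophage levels of the members was not tested.

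**Figure D5:**
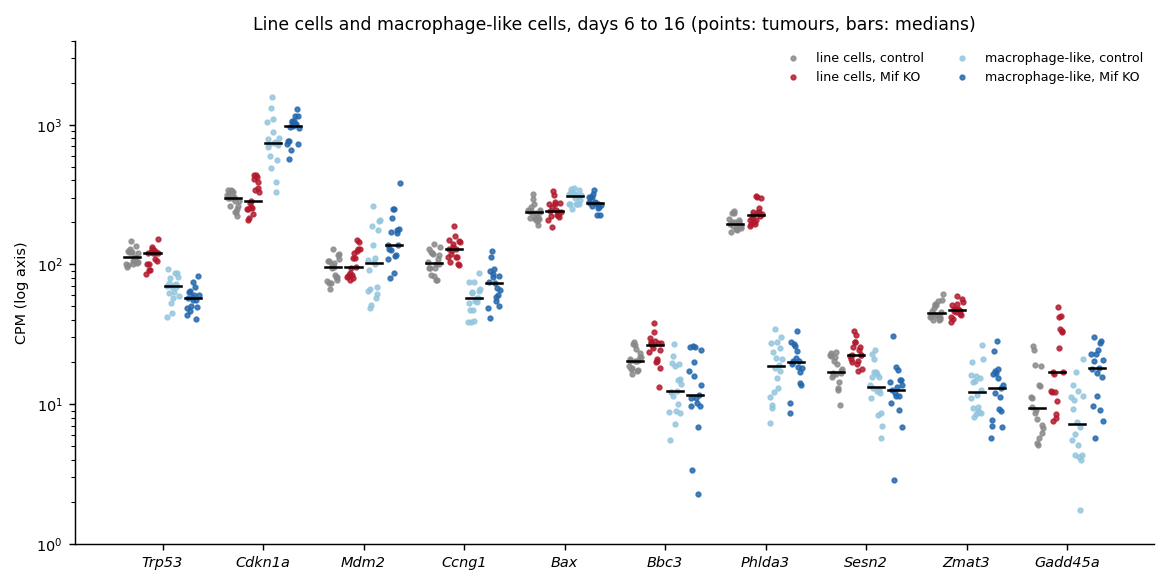
Level of each gene (y axis, CPM, log axis) in line cells and in macrophage-like cells of the same tumours at days 6 to 16, with 1 point per tumour and a bar at each median. Phlda3 and Zmat3 lie higher in line cells and Cdkn1a lies higher in macrophage-like cells; a tumour with 0 UMIs is not drawn.

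The 3 WT tumours, of days 6, 10 and 16 in mixed library 2, had line cells with Mif at 2464, 2622 and 2244 CPM. Their Gadd45a was 7.31, 9.66 and 10.7 CPM, their Cdkn1a 330, 291 and 232 CPM, their Mdm2 111, 98.9 and 71.4 CPM and their Sesn2 12.005 to 19.8 CPM. All of these Gadd45a values lay within those of the control lines at days 6 to 16. Phlda3, at 183, 162 and 157 CPM, had its 2 lower values below every control tumour.

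After line and day means were taken out, members did not all vary together over the 42 tumours. Pearson's r was 0.71 for Ccng1 and Zmat3, 0.67 for Trp53 and Bax, 0.63 for Cdkn1a and Sesn2 and 0.59 for Mdm2 and Sesn2. It was 0.47 for Cdkn1a and Mdm2 and -0.08 for Trp53 and Cdkn1a. Tumours share libraries and depth, so these are descriptions. Library means were not taken out, and in lines 15, 18 and 19 Ccng1 and Zmat3 were both highest in most mixed library tumours. Among 6633 well expressed genes, those closest to Cdkn1a were Glipr1, Sertad1, Rel, Nufip2 and Hmox1 (r of 0.70 to 0.74), with Sesn2 at rank 24. Those closest to Mdm2 were Spire1, Nab1, Tmem158, Phactr4 and Brd2 (0.71 to 0.75), with Sesn2 at rank 72. Closest to Ccng1 were Heatr3, Serbp1, Hnrnpu, Prkar2a and Rdx (0.77 to 0.82), and to Phlda3 Slc25a3, Rbm17, Minpp1, Coq2 and Lrwd1 (0.70 to 0.74).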

How the data were processed

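The authors deposited UMI counts, whole numbers that were not normalised, for each gene in each barcode of 6 libraries, together with a sheet of hashtags; the submitters' processing notes name mm10 and Cell Ranger 6.0.0. Barcodes needed 300 genes or more and no more than 15% of counts from mitochondrial genes. HTODemux (Seurat 5.3.0, quantile 0.99) assigned hashtags; negatives and hashtag doublets were left out, while doublets within a tumour remain, and 2 weak hashtags (33 and 7117 counts) were not used. Cells were clustered in scanpy 1.11.5 (2000 variable genes without the members and Mif, 30 components, 15 neighbours, Leiden resolution 1, giving 28 clusters) and named from marker lists. The 11 clusters with no such name and a Ptprc level up to 10% of that of macrophages are the line cells.

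Counts were summed per tumour over at least 20 cells and fitted in edgeR 4.0.16 (filterByExpr, TMM, quasi-likelihood test), with day and group, line and day, or group by day as terms, and Benjamini-Hochberg adjustment over all genes at 0.05. CPM values use no TMM factors, and an SE is the fold change divided by the root of F. The fits were also run on simulated counts, drawn independently for each tumour. For the KO test these counts held no effect of line or library, so its error with line nested in group was not tested. Line is nested in group, so the edgeR tests cover the 4 lines only. The text names all members, Mif, up to 3 genes each way from every other list (largest called change, mean logCPM of at least 2) and the 5 highest correlates (mean logCPM of at least 4). Cdkn2b, Trp63 and Trp73 were named after their counts were seen. Members and lists were chosen with earlier results of these data known. Alternatives included DESeq2 1.42.0, other scaling, filters and cell sets, and leaving out each line. Promoter sequence is from RefSeq.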

Additional observations from a re-analysis of the deposited data

Results flagged for a closer look

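In 4 of 130 groups of 4 to 6 tumours, 1 tumour stood apart from the others by Dixon's test (3.08%; chance gives about 1 in 20). Bbc3 in line cells was 24.6 CPM in a day 10 tumour of line 18 (letter B), beside 18.8 to 20.99 CPM in the other 5 control tumours of that day. Ccng1 in line cells was 188 CPM in the day 6 tumour of line 19 from mixed library 1, beside 133 to 147 CPM in the other 4 KO tumours. Zmat3 in line cells was 55.0 CPM in the day 10 tumour of line 18 from mixed library 2, beside 41.8 to 46.2 CPM in the other 5 control tumours. Bax in macrophages was 225 CPM in the day 10 tumour of line 24 from mixed library 2, beside 275 to 302 CPM in the other 5 KO tumours. In lines 15, 18 and 19, the mixed library tumour had the most Ccng1 of its line at each of days 6, 10 and 16. At day 16 of line 15 it had 123 CPM, beside 93.8 and 84.6 CPM. In line 24 it had the least at each day, such as 113 CPM beside 159 and 129 CPM at day 10. Zmat3 had the same order, except in line 15 at day 6 (51.4 CPM beside 52.4 and 50.8 CPM). The cause was not tested.

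The KO against control difference in line cells was not the same on all days for 5 of 10 members, by edgeR's group by day test: Trp53 (adjusted p = 0.000481), Zmat3 (0.00570), Mdm2 (0.00845), Ccng1 (0.0103) and Sesn2 (0.0321). Of all 11746 genes, 29.5% passed the same test. Leaving out control line 15 left 1 member past the threshold, and leaving out any other line left 4 to 6.

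A cluster of low UMI counts without a name was in no comparison, and 3629 of its cells came from line 24. Gadd45a there was 148 CPM from 1477 UMIs (95% exact Poisson interval 140 to 155, counting error only), beside 74.0 CPM in the line cells of that line. Those line cells had 161 CPM at day 0 and 21.4 to 38.5 CPM at days 6 to 16. The unnamed cells were not split by day, so a difference at a matching day was not tested. Ccng1 in the unnamed cells of line 24 was 220 CPM, beside 131 CPM in its line cells. With cells of all lines summed, Mdm2 was higher in the unnamed cluster than in line cells (132 and 94.0 CPM) and Bax lower (220 and 250 CPM). With this cluster added to the line cells, the KO against control difference of Gadd45a was 1.33 in place of 1.11.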

How the results depend on the processing

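The count of members called between KO and control line cells stayed within 1.5 times of 5 under the other alternatives run and moved further under these: with 1 sum per line it was 0 of 10 and 0 of all genes, with library as a term 2 (1743 genes), in the mixed libraries alone 0 (186 genes), and without 1 line 2 to 7, beside 5845 genes as reported. For macrophages (4 members, 2635 genes) it was 2 (908 genes) with 1 sum per line, 1 (354) with the library term, 1 (437) in the mixed libraries, and 926 to 2804 genes without 1 line. For the KO effect by day (5 members, 3465 genes), leaving out 1 line gave 1 to 6 members and 1601 to 4477 genes. Within the mixed libraries, RLE size factors gave 2 in place of 1. The days (8 to 10 members) and the pairs of lines (18 to 20 calls) kept their counts within 1.5 times.

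Under these alternatives, members whose sign turned were all below the threshold as reported. Of the members called over all samples, Gadd45a was -0.19 within mixed library 1, and Ccng1 and Phlda3 were -0.29 and -0.14 at day 0. For Phlda3 this sign holds in the fit with TMM factors only, as its day 0 means were 286 CPM in control and 287 CPM in KO tumours. In line cells Trp53 (-0.05) was 0.00795 with the library term, 0.0166 in mixed libraries, 0.0436 without day 0, 0.0803 in cells with no cycling UMI and -0.11 to 0.0413 without 1 line. Cdkn1a was -0.0179 in cells with no cycling UMI and -0.14 to 0.37 without 1 line, Mdm2 -0.0753 to 0.40 and Bax -0.0699 to 0.24 without 1 line, and Bax -0.00532 with the library term. Zmat3 was 0.00220 with DESeq2, 0.00446 with RLE size factors, 0.00429 with the stricter cell filter, 0.00778 with the library term, 0.0299 in mixed and 0.0124 in single-line libraries, 0.0751 without day 0, 0.0168 in cells with no cycling UMI, 0.0233 without a cluster led by nuclear RNAs, 0.000998 with the unnamed cluster and -0.0212 to 0.0461 without 1 line. In macrophages Bax was 0.00780 with 1 sum per line and -0.0796 to 0.0260 without 1 line, Bbc3 -0.0872 to 0.27 without 1 line, Phlda3 -0.119 with the library term and -0.244 in mixed libraries, and Sesn2 0.0381 with 1 sum per line, 0.00838 with the other hashtag call, 0.0736 with the stricter filter and -0.28 to 0.12 without 1 line. The cause was not tested. The 2 alternatives on clusters and the day test without mixed libraries were chosen after seeing the data.

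No paired analysis was possible because the numbers 15, 18, 19 and 24 name the lines, and the groups compared share none of them. KO and control tumours that share a mixed library and a day were compared in the fits of the mixed libraries, with day as a term, and those with a library term. Low counts limit the macrophage values of Gadd45a, Bbc3, Sesn2 and Zmat3, which had as few as 0 or 1 UMI in a tumour, and with 2 lines a group the effect of Mif and that of the line cannot be told apart.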

Other observations

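Between day 0 and day 16, line cells of all 4 lines changed in 10 higher and 8 lower of 31 other p53 target genes, beside 25.5% and 26.3% of all genes. Gdf15 (3.998 ± 0.45 on the log2 scale), Btg2 (1.88 ± 0.25) and the kinase gene Plk3 (1.15 ± 0.12) rose most, while Aen (-0.74 ± 0.14), a p53-induced nuclease gene, Zfp365 (-0.64 ± 0.11) and Triap1 (-0.52 ± 0.07) fell. In the Bcl2 family, set beside the same shares, 5 of 10 rose, among them Bcl2l11 (1.33 ± 0.16), the BIM gene, and Mcl1 (0.76 ± 0.07), and Bid (-0.94 ± 0.11) fell. In the integrated stress response 4 of 14 rose, led by Atf3 (2.35 ± 0.19), and 9 fell, led by Chac1 (-2.22 ± 0.18) and Trib3 (-2.14 ± 0.16).

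In macrophages of KO tumours, 10 of 13 cell cycle genes fell, with Aurkb at -1.47 ± 0.26 and Plk1 at -1.18 ± 0.26, and none rose, beside 18.6% of 6952 genes lower and 19.3% higher. Among other p53 targets, set beside the same shares, 7 of 17 rose, such as Pmaip1 (0.72 ± 0.13), the NOXA gene, and 5 fell, such as Gdf15 (-0.97 ± 0.26), which had risen in the line cells of KO tumours. Bcl2l11 (0.69 ± 0.16) and Atf4 (0.68 ± 0.07) rose as well.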
